A study of Bos taurus with 8 samples.

Results

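Red cell and heme genes were followed in cow blood that had been kept with a phenolic extract of cowpea leaf or without it. The set holds 10 genes: the globins HBA and HBB, the globin chaperone AHSP, the heme enzyme ALAS2, the mitochondrial iron carrier SLC25A37, the membrane proteins SLC4A1 and EPB42, the selenium-binding protein SELENBP1 and the erythroid transcription factors GATA1 and KLF1. The genes were taken by the symbol that the deposited series table gives each probe, 10 of 16966 symbols there. They have 20 of the 43653 probes on the array, and each probe was kept apart.

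The treated group (CPE) is fresh peripheral blood of female Holstein Friesian cows (5 animals) incubated with 10 µg/ml cowpea leaf phenolic extract for 30 min at 37 °C under 5% CO2. The comparison group (CONTROL) is blood handled the same way with no extract. All animals had received a probiotic pack for 60 days, so both groups carry that feeding. The series text states that RNA of a group was pooled, and each pool was read on 4 single-colour arrays on a slide of its own. The 4 arrays of a group may therefore be technical replicates, and errors and p-values cover the spread of arrays and leave out that of animals. The slides were scanned separately and read with different versions of the spot grid, so slide and treatment cannot be told apart in any comparison below. The labels also state that red and white cells were lysed differentially during RNA extraction, which acts directly on the cells these genes mark. In whole blood, fewer cells of a type and less RNA per cell cannot be told apart.

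Red cells are made in the bone marrow, where GATA1 and KLF1 switch on the genes of hemoglobin, heme synthesis and the red cell membrane. Hemoglobin joins alpha and beta globin chains with heme, which mitochondria make from iron and small precursors. Mammalian red cells lose their nucleus but carry leftover transcripts for a time as reticulocytes, and these are the usual source of globin RNA in blood. Adult cattle release few reticulocytes, so transcripts of nucleated marrow stages are generally scarce in their blood.

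Large areas of these arrays were dim, and their extent differed between arrays. A spot was called lit when its 61 nearest spots were bright, with a local brightness no more than 1.5 log2 units below the bright level of that array. Of 43803 spots compared, 13080 (29.9%) were lit on all 8 arrays. Lit spots made up 43.1% to 50.2% of a CPE array and 31.9% to 40.7% of a CONTROL array. The 75th percentile of processed signal was 133 to 279 intensity units in CPE and 53.1 to 148 in CONTROL. Spots well above background made up 37.8% to 49.9% of CPE arrays and 26.4% to 37.1% of CONTROL arrays. Spots lit on all 8 arrays, called the lit area, give the leading comparison, and values over the whole array are given where a probe lay outside it.

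CPE array 3 stands apart in how it was read out. Its file header records a multiplicative detrending step, a correction that rescales each spot by a smooth surface fitted over the array, and the headers of the other 7 arrays record none. Over the 21832 spots well above background on that array, the processed signal was 0.26 times the background-subtracted signal at the 1st percentile. It was 0.862 times at the median and 11.1 times at the 99th percentile. For spots well above background the ratio was 1 on the other arrays. The 6 member probes that were lit on all 8 arrays were all lowered, to 0.379 to 0.752 times, and 7 of the 8 that were lit on none were raised, by up to 8.8 times. For each member probe tested, its leading fit is therefore also given with the signal before this step.

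Of the 20 probes, 6 were well above background on all 8 arrays, 6 were lit on all 8, and 5 were both. The 5 probes stand for HBB, KLF1, SELENBP1 and SLC25A37 (with 2 probes). At the other end, 4 probes were well above background on no array and 8 were lit on none. In the lit area 1 of the 5 tested probes was called higher in CPE and 1 lower. That share is read against the background: 48.2% of the 8085 probes tested there were called, 23.8% higher and 24.4% lower. The groups did not overlap for 2 of the 5 probes, beside 50.7% of all probes tested.

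**Figure D1:**
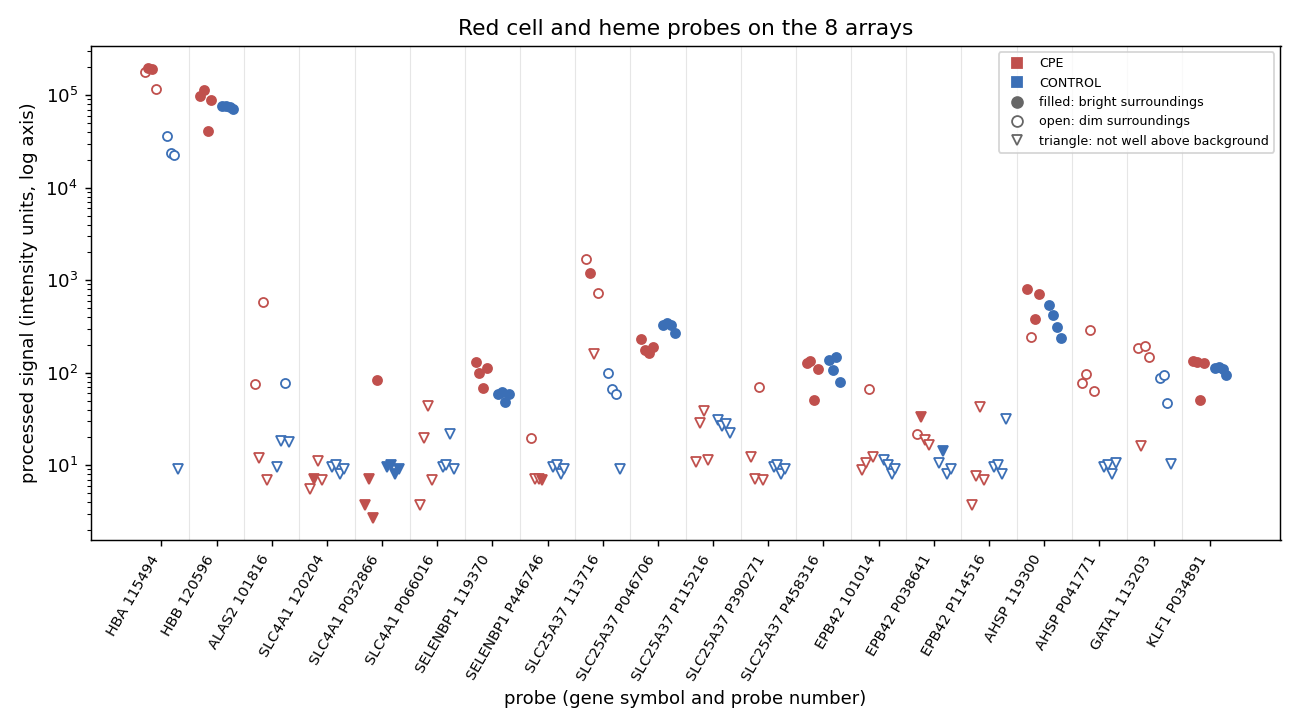
Processed signal (intensity units, log axis) of the 20 red cell and heme probes on each of the 8 arrays, with CPE in red and CONTROL in blue. Filled marks are spots in bright surroundings, open marks are spots in dim surroundings, and triangles are spots not well above background. Only HBB, KLF1, 1 SELENBP1 probe and 2 SLC25A37 probes have 8 filled circles. HBA runs from 194789 down to 9.15, a fill-in value that dim spots of CONTROL array 4 share.

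Sequences of the array probes below come from the deposited series table and are written 5′ to 3′. No genome positions are stated, since the RefSeq annotation that served for names is of a different build from the array. Accessions of all 20 probes matched that annotation, and 18 probes kept their symbol.

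HBB, the adult beta globin chain of hemoglobin, is read by 1 probe. It is shown because it is the globin spot that was bright, in bright surroundings, on every array. HBB A_73_120596 (NM_173917): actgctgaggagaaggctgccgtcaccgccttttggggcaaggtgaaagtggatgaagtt

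HBB gave strong signal in every sample. Its processed signal was 96777, 113899, 41065 and 89607 intensity units on CPE arrays 1 to 4. On CONTROL arrays 1 to 4 it was 75893, 76013, 73967 and 71618. CPE arrays 1, 2 and 4 lay above all CONTROL arrays, and CPE array 3 lay below them. Relative to the 75th percentile of the lit area, HBB stood at 7.03 ± 0.28 log2 units in CPE (SD, n = 4) and 6.75 ± 0.13 in CONTROL (SD, n = 4). The difference of 0.28 log2 units (SE 0.14, adjusted p = 0.146) did not pass the test, and the groups overlapped.

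The low HBB value was present only after the detrending step. Before it the spot on CPE array 3 read 95106, which lies among the other 3 CPE arrays. With the signal before multiplicative detrending, the HBB difference was 0.36 log2 units (SE 0.10, adjusted p = 0.0145), a 1.29-fold rise, and the groups did not overlap. On that reading 60.7% of all probes tested in the lit area were called, and 59% had groups that did not overlap. Without CPE array 3 it was 0.39 (adjusted p = 0.0255). Over 22 other settings the adjusted p ran from 0.00145 to 0.877, and 3 passed. Scaled over the whole array the sign turned, to −0.84 (SE 0.56, adjusted p = 0.214), where the median of all 14926 probes tested was −0.81. The authors' deposited table gives HBB a difference of −0.84 log2 units on that same whole-array scale.

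HBA, the alpha globin chain, also has 1 probe, and of the 20 member probes its spot had the widest gap in local brightness between the groups. The last 30 bases of the probe are shown because they hold the letters AATAAA, in capitals, from base 47 of 60. These are the letters of the usual polyadenylation signal, and no other of the 20 probes holds them on the printed strand. HBA A_73_115494 (NM_001077422), last 30 bases: cacctcctgatctttgAATAAAgtctgagt

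The HBA signal was 178822, 194789, 193606 and 116735 intensity units on CPE arrays 1 to 4. On CONTROL arrays 1 to 4 it was 36358, 23465, 22697 and 9.15, and the last was not well above background. That 9.15 is a fill-in value of the array and no reading of HBA. Other dim probes share it there, such as SLC4A1 A_73_120204 and EPB42 A_73_101014. All 4 CPE arrays were higher than all 4 CONTROL arrays, where 46.1% of all probes tested over the whole array had groups that did not overlap. The surroundings moved the same way: local brightness was 585 to 1344 in CPE and 102 to 226 in CONTROL, a gap of 2.67 log2 units, and the spot was lit on CPE arrays 2 and 3 only.

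The HBA difference over the whole array was 4.57 log2 units (SE 1.86, adjusted p = 0.0672), which did not pass, and 4.72 (adjusted p = 0.0883) before multiplicative detrending. Much of its size and error came with the fill-in value on CONTROL array 4, so neither is exact. Without that array the difference was 2.01 (SE 0.37, adjusted p = 0.0051), and without CONTROL array 1 it was 5.50 (adjusted p = 0.0399). Over 16 other settings the value ran from 2.01 to 5.52 and the adjusted p from 0.00477 to 0.167. How much of the HBA gap goes with the brightness of the surroundings was not tested.

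AHSP, the chaperone that holds free alpha globin until it pairs with beta globin, has 2 probes that overlap. They are shown because 45 bases, in capitals, are the same in both, so they read nearly the same stretch of the transcript (NM_177522).
AHSP A_73_P041771: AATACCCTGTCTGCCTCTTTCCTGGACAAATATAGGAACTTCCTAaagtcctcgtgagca
AHSP A_73_119300: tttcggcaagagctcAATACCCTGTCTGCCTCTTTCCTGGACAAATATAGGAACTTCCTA

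These overlapping probes gave different results. A_73_119300 read 798, 246, 382 and 702 on CPE arrays 1 to 4 and 539, 424, 314 and 236 on CONTROL arrays 1 to 4. It was well above background on all 8 arrays, and the groups overlapped over most of their range. On CPE array 3 it read 710 before multiplicative detrending. The spot was lit on every array except CPE array 2, whose local brightness of 1106 fell just short of the limit of 1110. With the lit area widened, its difference was 0.59 log2 units (SE 0.36, adjusted p = 0.2) with 122 neighbouring spots and 0.55 (SE 0.35, adjusted p = 0.228) with a limit of 2 log2 units. Over the whole array it was −0.54 (SE 0.56, adjusted p = 0.417), and −0.21 (SE 0.47, adjusted p = 0.710) before multiplicative detrending, so the sign turned with the scaling and no setting passed.

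A_73_P041771 read 76.5, 95.8, 288 and 63.1 on the CPE arrays, all well above background. On the CONTROL arrays it stood at 9.48, 10.15, 8.03 and 10.6, none well above background. The values on CONTROL arrays 1 to 3 are fill-in values, shared there by dim probes such as SLC4A1 A_73_120204. Against a floor set from the lowest well-above-background value of each CONTROL array, CPE was 1.99-fold higher over the whole array. This floor is array-wide and need not be the detection limit at this spot, so no exact difference and no firm lower bound is given. The probe entered the test through CPE alone, the group where it is high. The adjusted p of the fit was 0.00265, and 0.00174 before multiplicative detrending. These p-values, and those of the other settings below, set CPE mostly against fill-in values. They therefore do not measure a difference in transcript level. Over the whole array 38.9% of all probes tested were called and 17.3% were called higher. This spot was lit on no array, and local brightness was 132 to 626 in CPE and 96.0 to 115 in CONTROL. On CPE array 3 it read 113 before multiplicative detrending. Under normexp, a model-based background correction, the adjusted p was 0.305, and over 16 other settings the adjusted p ran from 0.000594 to 0.305, with 15 passing.

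**Figure D2:**
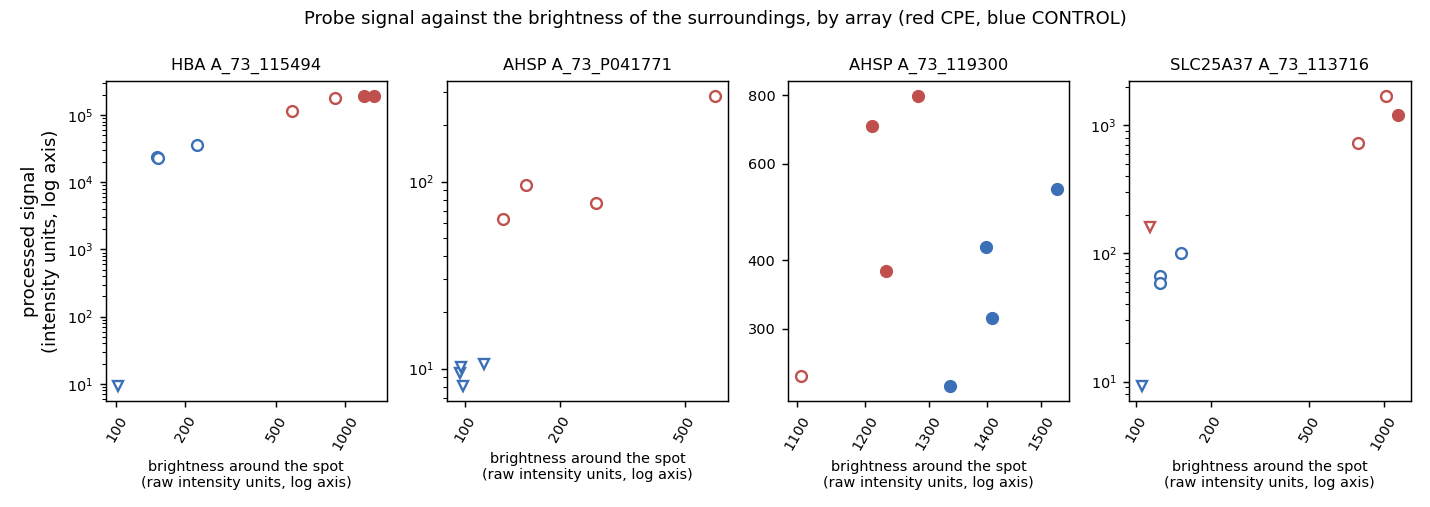
Processed signal of 4 probes (intensity units, log axis) against the local brightness around the spot (raw intensity units, log axis), one mark per array, with CPE red and CONTROL blue. Filled marks are lit spots and triangles are spots not well above background. For HBA, AHSP A_73_P041771 and SLC25A37 A_73_113716 the CONTROL spots lie in dim surroundings (96.0 to 226), while AHSP A_73_119300 lies between 1106 and 1529 on every array.

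SELENBP1, a selenium-binding methanethiol oxidase that accumulates in late erythroid cells, was higher in CPE in the lit area. Its leading probe, A_73_119370 (NM_001046048), begins ctgccacagccacaaaccgctcactgtgct over its first 30 bases. The signal was 129, 99.95, 68.6 and 113 on CPE arrays 1 to 4 and 59.3, 61.3, 47.7 and 59.6 on CONTROL arrays 1 to 4. Every CPE array lay above every CONTROL array, and the spot was lit and well above background on all 8. Relative to the 75th percentile of the lit area it stood at −2.61 ± 0.12 log2 units in CPE (SD, n = 4) and −3.60 ± 0.26 in CONTROL (SD, n = 4). The rise was 0.99 log2 units (SE 0.13, adjusted p = 0.000528), a 1.99-fold difference.

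The SELENBP1 rise changed little without the detrending step, at 0.95 log2 units (SE 0.13, adjusted p = 0.000306). Leaving out 1 array at a time gave 0.89 to 1.1, all past the threshold. Under normexp it was 0.44 (adjusted p = 0.4). The direction also depended on the scaling: over the whole array the difference was −0.13 (SE 0.53, adjusted p = 0.841), and the authors' deposited table has −0.13. Over 22 other settings 20 passed. Local brightness around the spot was 3250 to 3864 in CPE and 2303 to 2726 in CONTROL, and its part in the rise was not tested. The second probe, A_73_P446746, was well above background on CPE array 1 only, with signals from 6.95 to 19.5, and could not be compared.

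SLC25A37, or mitoferrin, brings iron into the mitochondria of developing red cells for heme synthesis. Its symbol covers 5 probes, and these fall on 2 transcripts in the annotation: 3 probes on NM_001102555, which keeps the name SLC25A37, and 2 on NM_001034549, now listed as LOC523756. The first 30 bases of the leading probe of each are shown because they gave different results.
SLC25A37 A_73_P046706 (NM_001034549): ggggagaatcagtgacagaggtgtttcatt
SLC25A37 A_73_P458316 (NM_001102555): tcttcaagtacttcctcaccaaacacaagc

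The LOC523756 probe A_73_P046706 was lower in CPE. It read 229, 178, 163 and 190 on CPE arrays 1 to 4 and 332, 341, 326 and 269 on CONTROL arrays 1 to 4. All CPE arrays lay below all CONTROL arrays. The level was −1.70 ± 0.29 log2 units in CPE (SD, n = 4) and −1.13 ± 0.05 in CONTROL (SD, n = 4), relative to the 75th percentile of the lit area. The fall was −0.57 log2 units (SE 0.14, adjusted p = 0.00991), a 1.48-fold difference.

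Local brightness around this spot overlapped between the groups, at 1411 to 1790 in CPE and 1319 to 1613 in CONTROL. Before multiplicative detrending the fall was −0.68 (SE 0.07, adjusted p = 5.99e-05). Over the whole array it was −1.69 (SE 0.46, adjusted p = 0.0156), where the median of all probes tested was −0.81 and 21.6% were called lower. Under normexp it was −0.40 (adjusted p = 0.128). The adjusted p ran from 5.99e-05 to 0.128 over 21 other settings in the lit area, and 20 passed. It also passed under all 17 whole-array settings.

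The mitoferrin probe A_73_P458316, lit and well above background on all 8 arrays, read 127, 134, 50.7 and 110 in CPE. In CONTROL it read 137, 108, 146 and 79.9, and the groups overlapped. Its difference in the lit area was −0.04 log2 units (SE 0.17, adjusted p = 0.848). Before multiplicative detrending the sign turned, to 0.08 (SE 0.13, adjusted p = 0.619), and no setting in the lit area passed. Over the whole array the difference was −1.16 (SE 0.53, adjusted p = 0.0917), where the median of all probes tested was −0.81. Before multiplicative detrending it was −0.73 (adjusted p = 0.0483) over the whole array. On that reading the median of all probes tested was −0.55, and 48.3% of them were called.

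A further mitoferrin probe, A_73_113716, lay in surroundings that differed widely between arrays. It read 1710, 1197, 161 and 732 on CPE arrays 1 to 4 and 100.4, 66.3, 59.2 and 9.15 on CONTROL arrays 1 to 4. The 9.15 is the fill-in value of CONTROL array 4. On CPE array 3 the spot read 15.4 before multiplicative detrending, so that step raised it 10.5 times. Local brightness was 1023, 1140, 114 and 791 on the CPE arrays and 106 to 152 on the CONTROL arrays. The probe was not well above background on CPE array 3 and CONTROL array 4 and met the rule for testing in neither group. The part of the surroundings in its signal was not tested. The other probes, A_73_P390271 and A_73_P115216, were lit on no array; the first was well above background on CPE array 3 only, with signals of 6.95 to 70.2, and the second on none, with 10.7 to 38.7.

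**Figure D3:**
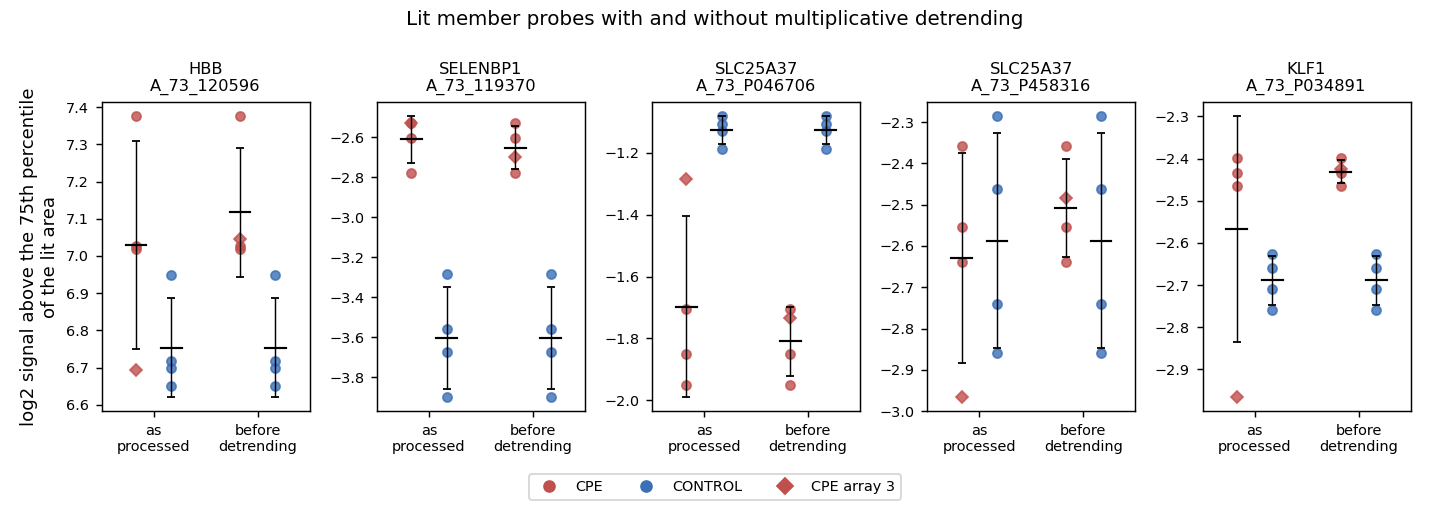
Level of the 5 probes lit and well above background on all 8 arrays (log2 units above the 75th percentile of the lit area), as processed and before multiplicative detrending, with CPE red, CONTROL blue and CPE array 3 as diamonds. Bars are means with SD over 4 arrays. Before detrending CPE array 3 joins the other CPE arrays for HBB and KLF1, while SELENBP1 stays higher and SLC25A37 A_73_P046706 lower in CPE in both readings.

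KLF1, the transcription factor that drives adult beta globin, was measured on every array. Its probe A_73_P034891 (NM_001080359) begins tcagatacttctgacaaagagacagactct over its first 30 bases. It read 135, 130, 50.8 and 127 on CPE arrays 1 to 4. On CONTROL arrays 1 to 4 it read 112, 114, 109 and 93.9. As for HBB, CPE arrays 1, 2 and 4 were above all CONTROL arrays and CPE array 3 was below them. The difference in the lit area was 0.12 log2 units (SE 0.13, adjusted p = 0.470) and did not pass.

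Before multiplicative detrending the KLF1 spot of CPE array 3 read 134, and the difference was 0.26 log2 units (SE 0.05, adjusted p = 0.00277), a 1.2-fold rise without overlap. Without CPE array 3 it was 0.26 (adjusted p = 0.0101). Over 22 other settings the adjusted p ran from 0.000422 to 0.926, and 3 passed. Over the whole array the sign turned, to −0.999 (SE 0.56, adjusted p = 0.155), where the median of all probes tested was −0.81. In all, before multiplicative detrending 3 of the 5 lit probes were called higher (HBB, KLF1 and SELENBP1) and 1 lower, beside 30.4% and 30.2% of the 8085 probes tested.

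GATA1, the factor that starts the erythroid program and is also used by mast cells, basophils and megakaryocytes, has 1 probe, shown whole because it is the only view of the gene. GATA1 A_73_113203 (NM_001206240): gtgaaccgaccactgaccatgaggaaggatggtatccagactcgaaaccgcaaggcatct. It read 183, 15.9, 192 and 147 on CPE arrays 1 to 4 and 88.6, 94.9, 46.8 and 10.4 on CONTROL arrays 1 to 4. The lowest value of each group was not well above background, and the groups overlapped. The spot was lit on no array, with local brightness of 152 to 607 in CPE and 146 to 343 in CONTROL, and it met the rule for testing in neither group.

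ALAS2, the erythroid enzyme that starts heme synthesis, was near background on most arrays. Its probe A_73_101816 (NM_001035103) begins gggaacgttcctactttgggaacatggggc over its first 30 bases. It read 75.002, 12.1, 587 and 6.95 on CPE arrays 1 to 4 and 9.48, 18.5, 77.6 and 17.9 on CONTROL arrays 1 to 4. It was well above background on CPE arrays 1 and 3 and CONTROL array 3, and was lit on none. Local brightness was highest, at 788, on CPE array 3, which also had the highest signal. No difference could be tested.

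The membrane genes gave little signal, and most of their spots lay in dim surroundings on most arrays. SLC4A1, or band 3, is the anion exchanger that anchors the red cell skeleton, and its 3 probes were well above background on 1 array in all. One of them bears on the limits of the dim areas and is shown for that reason. SLC4A1 A_73_P032866 (NM_181036): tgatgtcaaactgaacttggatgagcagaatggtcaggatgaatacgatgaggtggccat

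That SLC4A1 spot lay in bright surroundings on all 8 arrays, with local brightness of 1711 to 1941 in CPE and 1280 to 1428 in CONTROL. It nevertheless read 3.72, 7.10, 2.72 and 83.4 on CPE arrays 1 to 4 and 8.03 to 10.15 in CONTROL. Only CPE array 4 was well above background, so band 3 was not measurable by this probe on 7 of the 8 arrays although neighbouring spots were bright. The probes A_73_120204 (5.50 to 11.1) and A_73_P066016 (3.72 to 43.9) were well above background on none. The former was lit on CPE array 2 only and the latter on none. On the latter, the highest value, 43.9 on CPE array 3, was 5.43 before multiplicative detrending.

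EPB42, or protein 4.2, ties band 3 to the skeleton. Of its 3 probes, A_73_P114516 and A_73_P038641 share 50 bases: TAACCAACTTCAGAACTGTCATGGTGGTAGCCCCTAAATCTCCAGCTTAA. A_73_P038641 read 16.5 to 33.3 in CPE and 8.03 to 14.3 in CONTROL, and A_73_P114516 read 3.72 to 43.1 and 8.03 to 31.7. Their surroundings differed. Local brightness around A_73_P038641 was 772 to 1288 in CPE and 473 to 1127 in CONTROL, and that spot was lit on 2 arrays. Around A_73_P114516 local brightness was 70.0 to 150 in CPE and 190 to 423 in CONTROL, and that spot was lit on none. The first was well above background on CPE array 1 only and the second on none. Its highest CPE value, 43.1 on array 3, was 4.89 before multiplicative detrending. The third probe, A_73_101014, was well above background on CPE array 3 only (67.1, or 25.5 before that step), with other values of 8.03 to 12.1. That spot was lit on no array, and no EPB42 probe could be tested.

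Wider lists of the same pathways hold 247 probes of 112 genes on the array, members included. Of these, 60 probes were lit on all 8 arrays and 42 were tested in the lit area, with 17 called higher and 9 lower, beside 23.8% and 24.4% of all probes tested. With the stricter filter, which needs a probe well above background on all 8 arrays, 13 of 37 were called higher and 9 lower. That filter called 1656 higher and 1840 lower of all 7220 probes it tested. Before multiplicative detrending 23 of the 42 were called higher and 12 lower, beside 30.4% and 30.2% of all probes tested. The changes below are those of the processed signal. The median change of all 8085 probes tested in the lit area was 0.02 log2 units.

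Among the globins and their chaperone, 3 probes were tested, 1 was called higher and 2 passed in neither direction (median change 0.22). The call was HBG, listed as a fetal-type gamma globin: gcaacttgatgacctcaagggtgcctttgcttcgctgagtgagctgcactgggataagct is its probe A_73_P441566 (NM_001014902). It read 141281, 131944, 84130 and 135426 in CPE and 123480, 116576, 122803 and 104917 in CONTROL. The rise was 0.22 log2 units (SE 0.08, adjusted p = 0.0439). It is the least firm of these calls, with 8 of 21 other settings passing and adjusted p from 0.000641 to 0.957. Leaving out any 1 array other than CPE array 3 or CONTROL array 4 ended the call, with adjusted p from 0.0512 to 0.126. Bovine globin genes resemble each other closely, so probes of HBB and HBG may share transcripts.

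In heme synthesis 2 probes were tested, both of PPOX, the enzyme of the step before iron insertion. One was lower by −0.29 log2 units (SE 0.08, adjusted p = 0.0188; 0.0548 without CPE array 1), and the other differed by 0.22 (adjusted p = 0.0866). None of the 3 probes for heme breakdown and scavenging passed (HMOX2, HP and HPX, median change −0.18).

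Iron and heme transport had 11 tested probes, of which 5 were higher and 3 lower (median change 0.32). SLC40A1, the iron exporter ferroportin, was higher by 0.46 log2 units (SE 0.07, adjusted p = 0.00104). FTL, the ferritin light chain that stores iron, was higher by 0.54 (SE 0.17, adjusted p = 0.0264) on one probe and differed by 0.32 (adjusted p = 0.0822) on the other. The FTL call was lost without CPE array 1, 2 or 3 or CONTROL array 1 or 4, with adjusted p from 0.051 to 0.0718. STEAP3, the ferrireductase of transferrin-cycle endosomes, was lower by −0.36 (SE 0.10, adjusted p = 0.0175). SLC11A2, the ferrous iron importer, had probes called in opposite directions, at 0.76 (adjusted p = 0.00343) and −0.39 (adjusted p = 0.00463).

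Red cell enzymes had 7 tested probes, 5 higher and 1 lower (median change 0.80). Beside SELENBP1, the higher probes were of TXN (1.05 log2 units, SE 0.24, adjusted p = 0.00728), GLRX (0.73 and 0.80) and CAT (0.99, SE 0.08, adjusted p = 4.04e-05). TXN is the disulfide reductase thioredoxin, GLRX is glutaredoxin and CAT is the peroxide-degrading catalase, all also used by white cells. A second CAT probe was lower by −0.32 (adjusted p = 0.0134).

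Of the membrane and skeleton list, 5 of 46 probes could be tested in the lit area, with 2 higher and 2 lower (median change −0.13). ADD1, the actin-capping adducin, was higher by 0.84 log2 units (SE 0.08, adjusted p = 7e-05). TPM3, a tropomyosin, had probes at 0.65 (adjusted p = 0.00057) and −0.52 (adjusted p = 0.00101). SLC2A1, the glucose carrier, was lower by −0.27 (adjusted p = 0.0322), a call lost on leaving out CPE array 1 or 4 or any 1 CONTROL array (adjusted p 0.0525 to 0.0876).

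The regulator list had 6 tested probes, 1 higher and 2 lower (median change −0.35). ZFPM1, the GATA1 cofactor FOG1, was lower by −0.51 (SE 0.15, adjusted p = 0.0247), but not without CPE array 4 or CONTROL array 1 or 2 (adjusted p 0.0559 to 0.0664). JAK2, the kinase of the erythropoietin receptor, was lower by −0.36 (adjusted p = 0.0102) on 1 probe and higher by 0.80 (adjusted p = 0.0306) on the other. The higher JAK2 probe was well above background on 3 of 4 CONTROL arrays and met the rule for testing through CPE alone. The 1 higher call of this list therefore follows in part from that rule. Late red cell transcripts had 5 tested probes, 3 higher and 0 lower (median change 1.17), and their names are given after their values were seen. Probes of RNF10 (−0.12 log2 units, adjusted p = 0.256) and BNIP3L (0.08, adjusted p = 0.636) did not pass. Both were well above background on all 8 arrays. The 3 higher probes, of XPO7, TRIM58 and BCL2L1, met the rule for testing through CPE alone, so their count and the list's median follow in part from that rule. TRIM58 was well above background on no CONTROL array. In CPE it was 1.64-fold above a floor set from the lowest well-above-background value of each CONTROL array, which is no firm lower bound. BCL2L1 was well above background on 1 of 4 CONTROL arrays and read 46.7 to 102 in CPE and 24.0 to 49.6 in CONTROL. XPO7 was well above background on 3 of 4 and read 261 to 397 in CPE, 128 to 151 on CONTROL arrays 1 to 3 and 43.2 on CONTROL array 4. XPO7 is a nuclear export receptor and BCL2L1 an inhibitor of cell death, and neither is limited to red cells.

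**Figure D4:**
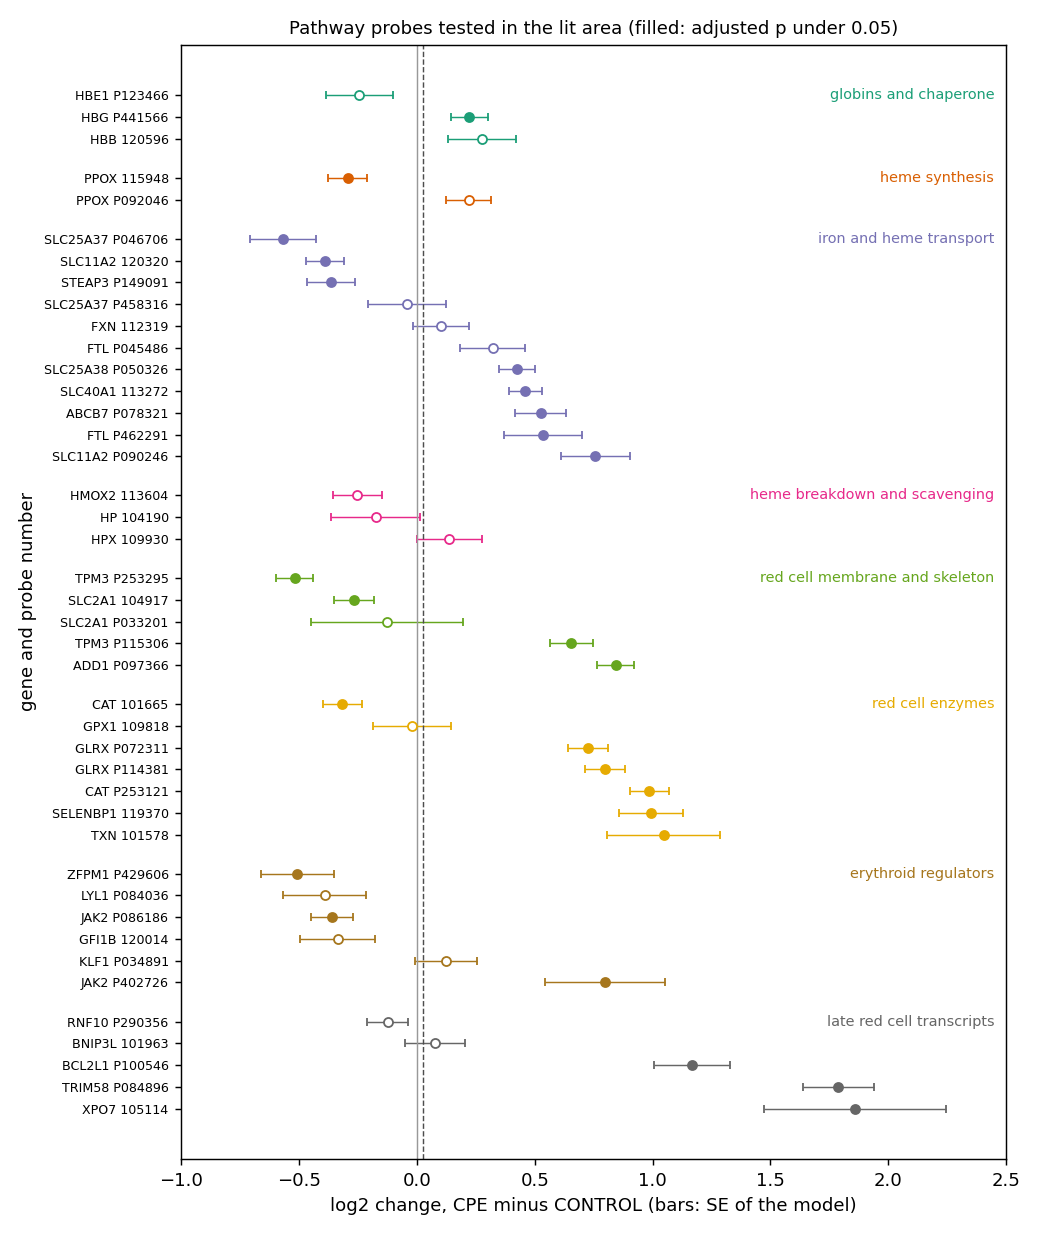
Log2 change (CPE minus CONTROL) of the 42 pathway probes tested in the lit area, grouped by list, with bars for the SE of the model. Filled marks passed an adjusted p of 0.05, the solid line is 0 and the dashed line is the median of all probes tested (0.02). Most red cell enzyme probes lie to the right (5 of 7 called higher), and the regulator probes lie on both sides.

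Markers of other blood cells were read in the same lit area, where 48.2% of all probes tested were called, 23.8% higher and 24.4% lower. Of T cell marker probes, 7 of 11 were higher and 0 lower, among them CD5 (1.36 log2 units) and CD3D (1.04). Their summed level was 71.8 to 95.1 times the 75th percentile in CPE and 49.7 to 53.9 times in CONTROL. Of neutrophil marker probes, 2 of 6 were higher, BPI (0.43, with values on 3 CONTROL arrays) and S100A12 (0.24). S100A12 passed under 7 of 20 other settings. The other 4 were lower, among them CXCR2 (−1.12) and CXCR1 (−0.99). Among these, ALPL met the rule for testing through CONTROL alone, the group where it was high. Summed levels of neutrophil probes were 105 to 118 in CPE and 101 to 112 in CONTROL. That sum covers the 5 probes with a value on every array, and most of it is S100A12, at 6.32 to 6.76 log2 units on each array. PPBP, a platelet chemokine, was the only platelet marker tested in the lit area and was higher by 1.46 log2 units, at 1.39 to 1.96 in CPE and 0.522 to 0.674 in CONTROL. Over the whole array 4 platelet probes were tested, with 1 called higher and 1 lower, beside 17.3% and 21.6% of all probes tested there. Calls over the whole array, higher and lower, were 2 and 0 of 16 T cell probes and 2 and 4 of 12 neutrophil probes. They were 3 and 2 of 7 monocyte probes and 2 and 1 of 6 B cell probes. In the lit area, monocyte markers had 0 of 4 probes higher and 2 lower (6.83 to 9.75 in CPE, 11.4 to 14.0 in CONTROL). Both lower probes were of CSF1R (−0.74 and −0.32 log2 units), and most of that sum is CSF1R. CD14 (0.05, adjusted p = 0.764) and FCGR3A (0.33, adjusted p = 0.065) did not pass. B cell markers had 0 higher and 1 lower of 4 (34.5 to 41.6 in CPE and 37.6 to 40.8 in CONTROL). Of the 10 probes for mast cells, basophils and eosinophils, which also use GATA1, 0 were tested in the lit area. The part of these cell types in the SELENBP1, TXN, CAT or SLC25A37 differences was not tested.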

How the data were processed

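Signal intensity per spot was deposited by the authors for 8 arrays, made with Agilent Feature Extraction 10.10.1.1 per the submitters' processing notes. Per the file headers, processed intensity was background-subtracted, with multiplicative detrending on CPE array 3 only. Some spots not well above background hold a fill-in value shared by other dim spots of the same array. A further table deposited by the authors gives group averages as log2 values, with probe names and sequences.

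Control spots (1417 of 45220) and outlier spots (12 to 73 per array) were left out. Log2 processed signal minus the 75th percentile, of the lit area or of the whole array, was compared per probe with limma 3.58.1 in R 4.3.3 (lmFit, eBayes, two-sided, Benjamini-Hochberg over all probes tested, threshold 0.05). To be tested, a probe had to be well above background on every array of 1 group or both. Changes are CPE minus CONTROL. For a probe dim throughout a group, the fold is taken against a floor, the higher of its own value and the lowest well-above-background value of each array. The floor is array-wide and need not be the detection limit at the spot, so that fold is not a firm lower bound. Named were all member probes and, per list, up to 2 further genes each way with the largest called change, well above background on all 8 arrays; others named were picked after their values were seen.

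The members and lists were chosen with earlier results of these data known. Alternatives were quantile normalization, scaling to bright probes, no scaling, normexp (offset 50, on the median signal and median background, as the files hold no mean signal), other filters on dim probes, trended and robust variance, the replicate number as a block, other limits of the lit area, local centring, which subtracts the median deviation of nearby spots, and leaving out each array. The signal before multiplicative detrending was added after the data were seen. The fit was tested on simulated data. The number of arrays limits the precision.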

Additional observations from a re-analysis of the deposited data

Results flagged for a closer look

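In groups of 4 arrays, a value was set apart when its gap to the nearest other value took up most of the group's range (Dixon's test at 95%). Of 66 groups checked, 10 were set apart, and chance gives about 1 in 20.

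Among red cell genes, HBA on CONTROL array 4 stood at −2.54 log2 units relative to the whole-array 75th percentile, against 7.56 to 7.94 on the other CONTROL arrays. That HBA value is the fill-in value of the array. AHSP A_73_P041771 on CPE array 3 stood at 0.05, against −1.30 to −1.08 on the other CPE arrays. KLF1 on CPE array 3 stood at −2.97 on the lit-area scale, against −2.47 to −2.40; before multiplicative detrending it was −2.43.

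The other values are on the lit-area scale. On CPE array 3, CSF1R A_73_P045266 stood at 1.99 (others 2.82 to 2.89), CXCR2 A_73_P040406 at −2.94 (others −1.83 to −1.66), and A_73_115473, named CXCR2 in the files and CXCR1 in the annotation, at 0.48 (others 1.21 to 1.33). On CONTROL array 4, TXN stood at 0.06 (others 1.04 to 1.23), S100A12 at 6.46 (others 6.32 to 6.33) and TPM3 A_73_P253295 at −1.95 (others −2.02 to −2.01). On CONTROL array 2, CD3D stood at −0.66 (others −0.54 to −0.52).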

How the results depend on the processing

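The 3901 calls of the lit area became 1480 without scaling (428 higher, 1052 lower, with the median of all probes shifted by −0.17 log2 units) and 1691 under normexp, and were 3268 to 4464 on leaving out 1 array. The 26 calls of the pathway lists became 6 without scaling and 8 under normexp, and 21 to 29 on leaving out 1 array. The 2 calls of the member probes became 0 under normexp, 1 with a limit of 1 log2 unit, where 4 probes were tested, and 4 under local centring and before multiplicative detrending; leaving out 1 array gave 2 to 4, with 4 without CPE array 3. Local centring shifted the median by 0.11 and split the lit-area calls into 3561 higher and 2150 lower. The 5811 calls over the whole array became 3130 under normexp and 3678 with the stricter filter on dim probes, which tested fewer probes; leaving out 1 array gave 3762 (without CONTROL array 2) to 6877. Scaling to bright probes shifted the whole-array median by 0.89 and turned SELENBP1 from −0.13 to 0.76; no scaling shifted it by 0.95 and turned SELENBP1 to 0.82. The split of whole-array calls moved with it, from 2588 higher and 3223 lower to 3900 and 2361 with bright-probe scaling, 3247 and 1146 with no scaling, 208 and 3470 with the stricter filter, and 2678 and 4537 before multiplicative detrending. The lit-area SELENBP1 rise was −0.13 when scaled over the whole array and −0.13 in the authors' deposited table. S100A12, called at 0.24 in the lit area, was −0.0767 under quantile normalization. Except where stated, the cause was not tested.

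With the replicate number as a block, calls were 3758 in the lit area and 7030 over the whole array, and HBA passed (adjusted p = 0.00477). That HBA fit keeps the fill-in value on CONTROL array 4. Arrays of the same number did not all deviate together (r from −0.17 to 0.41 over the 4 numbers), so the numbers were not taken to pair arrays. Slide as a block could not be fitted, since each group lay on its own slide. For lack of signal over background, 12 of 20 member probes could not be tested.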
